A study of Homo sapiens with 6 samples.

Results

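The ARMCX and GPRASP genes are a family of armadillo-repeat genes on the long arm of chromosome X. The 8 genes described here are ARMCX1 to ARMCX6, GPRASP1 and GPRASP2, of 20503 genes named on the array, and every probe whose transcript accession belongs to 1 of them was kept and read separately. The family was chosen from the same comparison that is described below, because ARMCX1 was among the genes with the largest fall in it. Its differences between the groups are therefore given as a description and not as a test of the family.

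RNA was hybridised to 6 Agilent arrays in a single colour, and came from A673 cells, an Ewing sarcoma cell line. All cells carried the tetracycline repressor (TR). The control cells, A673/TR/empty (3 arrays), carried the vector without a LOX insert, and A673/TR/LOX-PP cells (3 arrays) carried, in a doxycycline-inducible lentiviral vector, the cDNA of the propeptide of lysyl oxidase (LOX-PP). The sample labels give doxycycline at 1 µM for 72 h for all 6 samples, but the methods are clear about it for A673/TR/LOX-PP alone, and nothing settles whether control cultures had it. The lines were made by selection of stable clones. Which clone or population was hybridised is not stated, so that a difference between lines and an effect of the propeptide cannot be told apart. The comparison asks which genes differ between A673/TR/LOX-PP and A673/TR/empty cells.

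ARMCX genes are thought to have arisen in placental mammals by retroposition of the autosomal gene ARMC10. Several of their proteins, ARMCX1 and ARMCX3 among them, are anchored in the outer mitochondrial membrane, where they act with the Miro and TRAK adaptors that couple mitochondria to kinesin, and they take part in the transport of mitochondria along microtubules, best known from neurons. GPRASP1 and GPRASP2 are larger relatives that bind the tails of G protein-coupled receptors, and GPRASP1 directs several of these receptors to the lysosome after endocytosis.

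In RefSeq (assembly GRCh38.p14) the members follow each other on chromosome X in the order ARMCX4, ARMCX1, ARMCX6, ARMCX3, ARMCX2, ARMCX5, GPRASP1 and GPRASP2. The sequence before the start was given for 7 of the 8 genes, with 2 entries for ARMCX4 and none used for ARMCX3. The 250 bases upstream of ARMCX1 and ARMCX2 are shown because these are the genes whose signals differed most between the groups, and in opposite directions. Capitals mark the longest stretch that both share, of 25 bases, and the E-box CACGTG.
ARMCX1, plus strand, chrX:101550297-101550546: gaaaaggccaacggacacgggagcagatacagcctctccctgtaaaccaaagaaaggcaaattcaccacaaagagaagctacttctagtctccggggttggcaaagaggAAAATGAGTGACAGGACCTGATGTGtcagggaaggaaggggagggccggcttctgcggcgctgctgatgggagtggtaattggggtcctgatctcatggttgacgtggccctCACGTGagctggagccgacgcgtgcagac
ARMCX2, minus strand, chrX:101659851-101660100: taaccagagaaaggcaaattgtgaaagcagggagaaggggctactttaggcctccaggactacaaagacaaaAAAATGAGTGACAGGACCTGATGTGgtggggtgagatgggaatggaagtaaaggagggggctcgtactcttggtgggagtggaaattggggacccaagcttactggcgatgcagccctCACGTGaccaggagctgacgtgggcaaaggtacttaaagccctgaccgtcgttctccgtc

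The shared stretch of 25 bases ended 116 bases before the start of ARMCX1 and 153 bases before that of ARMCX2, and was found in these 2 of 35116 RefSeq promoters. The E-box ended 23 bases before the start of ARMCX1 and 54 bases before that of ARMCX2. CACGTG reads the same on both strands. It was present in 4 of the 8 member entries (those of ARMCX1, ARMCX2 and ARMCX6 and 1 of ARMCX4) and in 7.26% of all promoters, over 300 bases of which 50 follow the start. GGAAGGAA, searched on both strands because the Ewing sarcoma fusion protein EWS/FLI1 is known to bind GGAA repeats, was present in the entry of ARMCX1 and in no other member entry, and in 3.67% of all promoters. The motifs were chosen after the sequences had been seen.

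Over the 250 bases before the start there were 11 CpG at ARMCX1 and 7 at ARMCX2, against a median of 11 over all promoters. GPRASP1 and GPRASP2 each had 23 CpG, and 71.6% of their bases were G or C. These genes shared a longer stretch, of 48 bases, shown here as the longest run common to any pair of members. It ended 69 bases before each start, at chrX:102651366-102651413 for GPRASP1 and chrX:102712331-102712378 for GPRASP2, both on the plus strand, and was also found before GPRASP3 and the readthrough gene ARMCX5-GPRASP2.
GPRASP1 and GPRASP2, shared stretch: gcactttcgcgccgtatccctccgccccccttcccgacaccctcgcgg

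Each array held 50599 gene probes, of which 28174 had an accession with a RefSeq name. Between 56.9% and 74.8% of the gene spots of an array were well above background, and 0 gene spots were saturated. Background differed between arrays, with net signals of negative control spots that ran from 133 to 408 for the control group and from 64.4 to 575 for the LOX-PP group. LOX-PP replicate 1 had a slide and a scan day to itself, while the remaining 5 arrays were on 1 slide with 1 scan day. The log2 signal of the LOX probe was −0.09, 0.36 and 0.11 in the control cells and −0.12, −0.68 and −1.29 on the arrays labelled LOX-PP. All values on the latter lay under all control values, and the nearest were 0.03 apart. The difference, LOX-PP minus control, was −0.82, or −0.95 relative to the median difference over all tested probes. Its p by limma was 0.0428 unadjusted and 0.217 adjusted, so that it is not called a fall here. The LOX probe was thus lower and not higher on the arrays labelled LOX-PP. It did not check the labels, since its place relative to the propeptide was not analysed here.

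The 10 genes listed as Ewing sarcoma markers, with CD99, NR0B1 and FLI1 among them, were well above background on all 6 arrays. Of their 12 probes, 0 passed an adjusted p under 0.05 (limma), 1 had an unadjusted p under 0.05 and 0 passed by the methods' t-test, where 5.66% of all tested probes passed by limma. Of the other marker lists, 0 of 5 epithelial and 0 of 3 leukocyte probes passed by limma, with 2 and 0 at an unadjusted p under 0.05 and 2 and 0 past the methods' t-test. Over all 32647 tested probes, 6954 had an unadjusted p under 0.05 by limma and 566 passed the methods' t-test.

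The genes of the family did not move together. ARMCX1, whose probe was bright in all 3 control cultures, gave no signal well above background in any LOX-PP culture, and the level in the control cells was at least 72.4-fold higher with a common floor under all arrays and at least 179-fold higher with a floor for each array. ARMCX2, a near neighbour of ARMCX1, was 5.89-fold higher in the LOX-PP cells. The other 7 tested probes, for ARMCX3 to ARMCX6, GPRASP1 and GPRASP2, did not pass the threshold. Levels are given as log2 signal over the 75th percentile of the array, so that a probe at 0 is as bright as that percentile. Differences are LOX-PP minus control, given relative to the median difference over all 32647 tested probes (0.13), and adjusted p-values are those of limma over these probes.

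**Figure D1:**
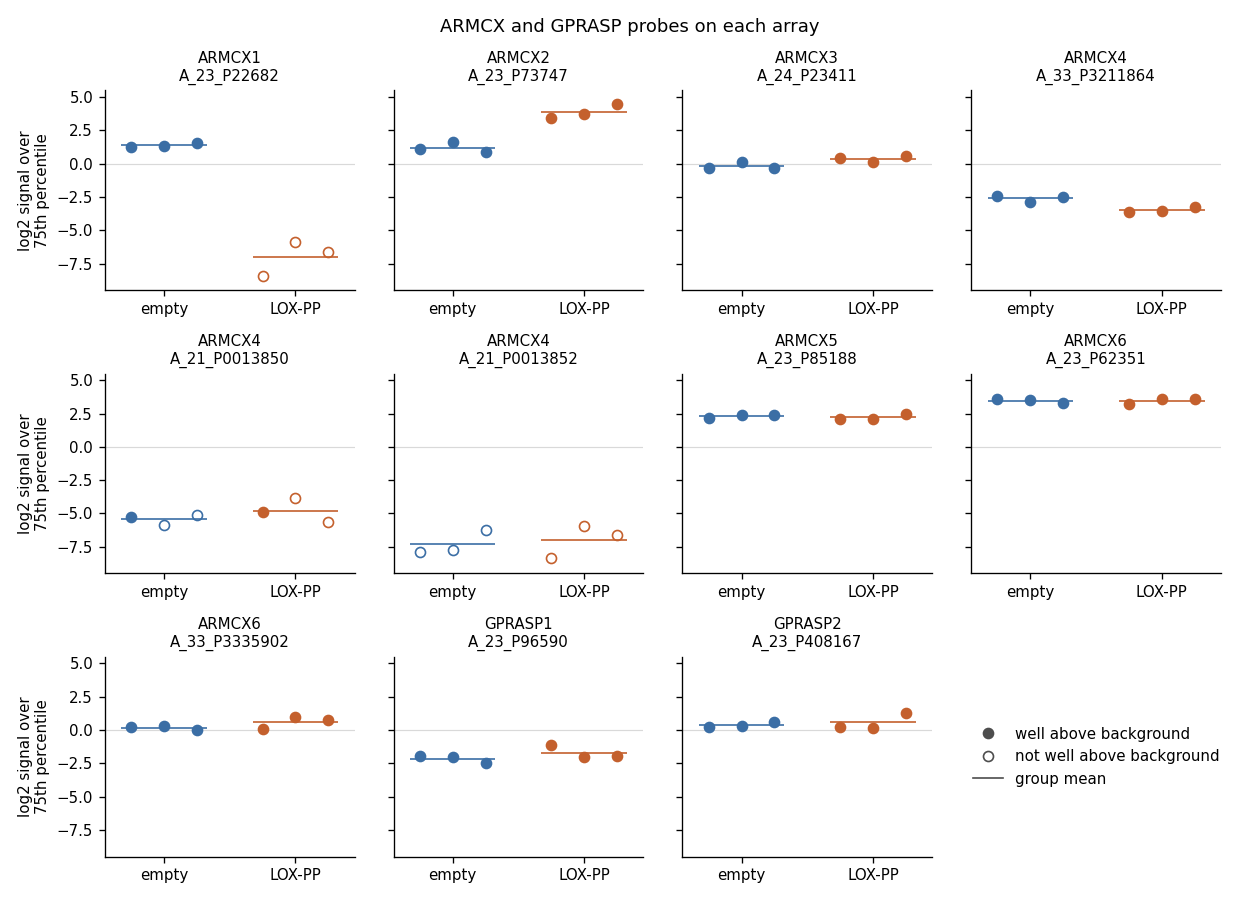
Log2 signal over the 75th percentile of the array (vertical axis) of each of the 11 member probes on the 3 A673/TR/empty and the 3 A673/TR/LOX-PP arrays, in replicate order from left to right, with open points where the probe was not well above background and lines at the group means. The ARMCX1 points fall from 1.23 or more to open points at −5.89 or less, and the ARMCX2 points rise from 1.59 or less to 3.45 or more.

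ARMCX1 (also known as ALEX1) is a mitochondrial outer membrane protein that carries an armadillo domain and is known to promote mitochondrial transport in axons. Its probe, A_23_P22682, gave 1.23, 1.31 and 1.58 in the control cells and −8.43, −5.89 and −6.65 in the LOX-PP cells. As processed spot intensity before scaling these were 17870, 15497 and 18538 in the control cells and 8.25, 105 and 33.1 in the LOX-PP cells. All control values lay above all LOX-PP values.

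The lowest signals that were well above background on the LOX-PP arrays were −7.65, −4.81 and −5.9, each above the ARMCX1 value of the same array. The flag is set spot by spot, and brighter spots can miss it (NLRP2 at −3.77 on LOX-PP replicate 2), so that these signals are no sharp limit, and the LOX-PP values of ARMCX1 have no order among themselves. Set against the lowest signals of each array, the control mean of 1.37 ± 0.19 (SD, n = 3) was at least 179-fold higher, or 7.49 on the log2 scale. Set against the highest of them, −4.81, as a common floor, a bound added after the data had been seen, it was at least 72.4-fold higher, or 6.18 on the log2 scale. The measured LOX-PP mean was −6.99 ± 1.30 (SD, n = 3).

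The fitted relative difference of ARMCX1 was −8.49 (adjusted p = 0.00124 by limma). It rests on LOX-PP values that were not well above background, on a filter passed through the control arrays alone, and on a probe for which the family was chosen, so that it is neither a size nor a test. Without LOX-PP replicate 1, which also gives the difference within the slide of the other 5 arrays, it was −7.80 (adjusted p = 0.000946). With all arrays raised to a common floor it was −6.31, and under normexp background correction −6.43. It kept its direction and its call under the 16 alternatives that tested it, between −8.96 and −6.31. In RNA of whole cultures, fewer cells with ARMCX1 mRNA and less of it in each cell cannot be told apart.

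ARMCX2 (ALEX2) is a close relative of ARMCX1 that carries the same kind of armadillo domain. The probe A_23_P73747 gave 1.12, 1.59 and 0.91 in the control cells and 3.45, 3.75 and 4.47 in the LOX-PP cells, and it was well above background on all 6. The groups did not overlap, and the nearest values were 1.86 apart. The means were 1.21 ± 0.35 and 3.89 ± 0.53 (SD, n = 3 each). The relative difference was 2.56, with a 95% interval from 1.77 to 3.35, or 5.89-fold (3.4 to 10.2), with an adjusted p of 0.00752 by limma. It was the rise with rank 291 among the tested probes.

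The direction of ARMCX2 was the same under all 17 alternatives, between 2.27 and 2.81. It missed the threshold in the methods' t-test (adjusted p = 0.0639) and without control replicate 1 (2.53, adjusted p = 0.0544). Without LOX-PP replicate 1 it was 2.74 (adjusted p = 0.0116).

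In the RefSeq order ARMCX6 and ARMCX3 lie between ARMCX1 and ARMCX2, beside the pseudogenes ARMCX7P and RNU6-30P, which were not measured here.

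ARMCX6, which encodes a short member of the group, was read by 2 probes. A_23_P62351 gave 3.58, 3.49 and 3.31 in the control cells and 3.25, 3.57 and 3.59 in the LOX-PP cells, so that the groups overlapped almost fully. A_33_P3335902 gave 0.26, 0.31 and −0.03 against 0.10, 0.97 and 0.72. The relative differences were −0.11 (95% interval −0.62 to 0.40) and 0.29 (−0.38 to 0.97), with adjusted p-values of 0.981 and 0.448 by limma. The sign of the first turned under quantile normalization, and neither interval reaches the size of the ARMCX2 difference.

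ARMCX3 (ALEX3) is known to bind Miro and TRAK and to set how mitochondria cluster and travel. Its probe, A_24_P23411, gave −0.31, 0.11 and −0.33 in the control cells and 0.39, 0.13 and 0.58 in the LOX-PP cells. The groups did not overlap, but control replicate 2 and LOX-PP replicate 2 were only 0.02 apart. The relative difference was 0.42 (95% interval −0.15 to 0.99), with an adjusted p of 0.253 by limma.

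ARMCX4 had 3 probes, all annotated with the same non-coding RefSeq transcript (NR_028407). A_33_P3211864 was well above background on all arrays and gave −2.45, −2.85 and −2.48 in the control cells and −3.66, −3.55 and −3.22 in the LOX-PP cells. The LOX-PP values all lay under the control values, with a gap of 0.37. The relative difference was −1.01 (95% interval −1.56 to −0.45) and missed the threshold (adjusted p = 0.0837 by limma, 0.0566 to 0.34 over 17 alternatives), so that it is not called a fall here.

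The other ARMCX4 probes were too dim to test. A_21_P0013850 was well above background only on control replicate 1 and LOX-PP replicate 1, and gave −5.27, −5.86 and −5.12 against −4.93, −3.88 and −5.66. A_21_P0013852 was not well above background on any array, and gave −7.90, −7.76 and −6.23 against −8.38, −5.93 and −6.63. In neither did the groups separate.

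ARMCX5 is the member nearest to the GPRASP genes and is joined to GPRASP2 in a readthrough transcript. Its probe, A_23_P85188, gave 2.19, 2.40 and 2.39 in the control cells and 2.12, 2.06 and 2.47 in the LOX-PP cells. The groups overlapped, and the relative difference was −0.24 (95% interval −0.75 to 0.28, adjusted p = 0.817 by limma), a sign that turned under quantile normalization.

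GPRASP1 was read by A_23_P96590, with −1.92, −1.99 and −2.50 in the control cells and −1.12, −2.05 and −1.98 in the LOX-PP cells. Only LOX-PP replicate 1 lay above the control range. The relative difference was 0.29 (95% interval −0.48 to 1.07, adjusted p = 0.506 by limma) and −0.04 without that array. GPRASP2 was read by A_23_P408167, with 0.22, 0.31 and 0.59 against 0.22, 0.18 and 1.30. Here only LOX-PP replicate 3 lay above the control range, and the relative difference was 0.06 (95% interval −0.76 to 0.89, adjusted p = 0.798 by limma) and −0.30 without that array. The intervals of both genes leave out a change as large as that of ARMCX2, and they do not show that the genes stayed the same.

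**Figure D2:**
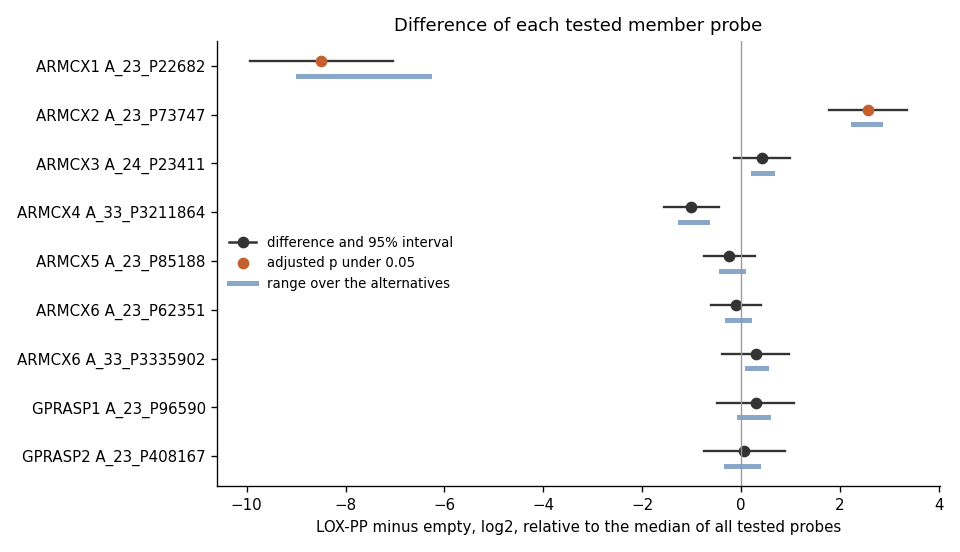
Relative log2 difference, LOX-PP minus control (horizontal axis), of the 9 tested member probes, with the 95% interval from limma as a black line and the range over the alternatives as a blue bar. ARMCX1 lies at −8.49, a fitted value that rests on signals not well above background and is no bound, ARMCX2 at 2.56, and the other 7 probes between −1.01 and 0.42.

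Of the 11 member probes, 9 passed the filter (well above background on at least 3 of 6 arrays), and each of the 8 genes had at least 1 of them. The ARMCX1 probe passed it through the control arrays alone. By limma, 2 of the 9 passed the threshold, against 5.66% (1849) of all tested probes. ARMCX2 was higher, as were 3.31% (1080) of all probes, and ARMCX1 was lower, as were 2.36% (769). Under quantile normalization the split over all probes was 908 higher and 983 lower. The groups did not overlap for 4 of the 9, against 29.5% of all tested probes. Since the family was selected on this comparison, nothing is read from these counts. Of the 9 relative differences 5 were above 0 and 4 below, their median was 0.06, and 6 were within 0.5 of 0.

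The neighbours of the family on chromosome X were taken by position, as the genes between the first and last member and 20 protein-coding genes on either side. Of these, 37 genes had 45 tested probes. By limma 4 probes of 3 genes rose in the LOX-PP cells and 0 fell, against 3.31% and 2.36% of all tested probes. The median relative difference over the 45 probes was 0.39, with 31 above 0, 13 below, and a range from −1.71 to 2.82. Without control replicate 1 or without control replicate 2, 1 of the 45 passed, against 407 and 444 of all 32647 tested probes.

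RAB9B, a small GTPase of the Rab family, was read by 2 probes. A_24_P126139 gave −4.19, −4.27 and −4.47 in the control cells and −1.76, −1.68 and −2.33 in the LOX-PP cells (relative difference 2.26, adjusted p = 0.00425 by limma). A_23_P406448 gave −4.92, −4.53 and −5.39 against −1.17, −1.92 and −2.92 (2.82, adjusted p = 0.0177). Both were well above background on 2 of the 3 control arrays and on all LOX-PP arrays, and both rose.

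ZMAT1, a zinc finger gene that follows ARMCX2 in the order of tested genes, had 2 probes. A_23_P125748 gave −3.69, −3.79 and −3.18 in the control cells and −1.57, −2.44 and −1.75 in the LOX-PP cells (1.51, adjusted p = 0.0313 by limma). A_24_P11100 was well above background on 1 array of each group and was not tested. It gave −8.23, −4.35 and −6.11 against −4.59, −5.46 and −6.55, so that the groups overlapped. SYTL4, which encodes the vesicle protein granuphilin, passed with the dimmer of its 2 probes (2.01, adjusted p = 0.0136), which was well above background on 1 control and 2 LOX-PP arrays. Its brighter probe, well above background on all arrays, had a relative difference of 1.50 and missed the threshold (adjusted p = 0.0688). GPRASP3, the relative next to GPRASP2, gave −0.60, −0.77 and −0.98 against 0.01, −0.24 and −0.62, and its difference of 0.37 did not pass (adjusted p = 0.301).

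**Figure D3:**
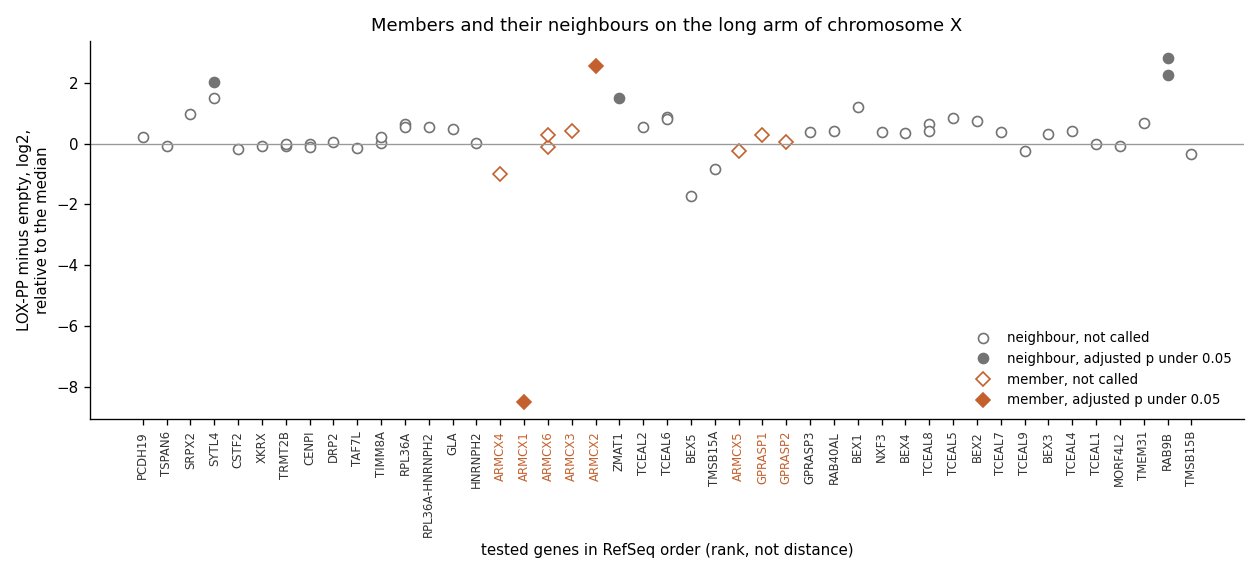
Relative log2 difference, LOX-PP minus control (vertical axis), of the tested probes of the members (diamonds) and of their neighbours (circles), by the rank of the gene in the RefSeq order of chromosome X, filled where the adjusted p was under 0.05. ARMCX1 is the lowest point at −8.49 and its nearest tested neighbours, ARMCX4 and ARMCX6, lie between −1.01 and 0.29.

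The genes of mitochondrial transport and shape were listed because ARMCX proteins act with them. All 24 were tested, with 38 probes, and 3 probes passed by limma, 2 higher and 1 lower (5.66% of all tested probes passed). The median relative difference was −0.20. Without control replicate 1 or without control replicate 2, 1 of the 38 passed, in the lower direction. Over all 32647 tested probes 407 and 444 then passed, 161 and 167 of them lower.

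MGARP, a mitochondrial protein that takes part in the movement of mitochondria, fell from 1.43, 1.66 and 1.90 on the control arrays to −1.18, −0.95 and −1.35 on the LOX-PP arrays. The relative difference was −2.95 (95% interval −3.50 to −2.40, adjusted p = 0.00176 by limma). SNPH, syntaphilin, which anchors axonal mitochondria to microtubules, rose from −3.76, −3.97 and −3.08 to −1.91, −1.23 and −0.93 (2.12, adjusted p = 0.0175). In neither gene did the groups overlap.

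MIEF1, an adaptor of the mitochondrial fission protein DRP1, passed with 1 of its 3 probes. A_33_P3238074 gave −0.01, 0.03 and 0.90 in the control cells and 4.14, 2.69 and 2.99 in the LOX-PP cells (2.84, adjusted p = 0.0146 by limma). The other probes had relative differences of −0.66 and −0.99 with adjusted p-values of 0.283 and 0.0855, so that the probes of this gene disagree and no direction is given for it.

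The direct partners of ARMCX proteins did not pass the threshold. These are named for their known role, after their values had been seen. The relative differences were 0.27 and 0.12 for the probes of RHOT1 and −0.57 for RHOT2, which encode the Miro proteins, and −0.41 and 0.23 for TRAK1 and −0.87 for TRAK2, the adaptors to kinesin. For TRAK2 the 95% interval was −1.35 to −0.39 (adjusted p = 0.0872 by limma). ARMC10, the autosomal relative, had 3 bright probes with differences of −0.05, −0.27 and −0.17.

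The genes of receptor sorting were listed for GPRASP1 and GPRASP2, and hold the sorting machinery and receptors that GPRASP proteins are known to bind. Of the list, 23 genes were tested with 28 probes, and 2 passed by limma, both higher (3.31% of all tested probes were). The median relative difference was −0.14. Without control replicate 1 or without control replicate 2, 0 of the 28 passed, with 3 and 4 at an unadjusted p under 0.05, and without any 1 of the LOX-PP arrays 1 passed. Over all 32647 tested probes, 407 and 444 passed without these control arrays, with 4328 and 4350 at an unadjusted p under 0.05. By the methods' t-test 0 passed, with 8 at an unadjusted p under 0.05, against 566 and 6430 of all tested probes.

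Both genes that passed are receptors. CXCR4, the receptor of the chemokine CXCL12, gave 0.05, 0.11 and 0.73 in the control cells and 2.56, 3.42 and 3.78 in the LOX-PP cells (2.83, 95% interval 1.95 to 3.71, adjusted p = 0.00763 by limma). DRD2, the dopamine D2 receptor, gave −1.04, −1.24 and 0.72 against 2.48, 2.22 and 1.66 (2.52, 95% interval 1.24 to 3.80, adjusted p = 0.0388). The control arrays of DRD2 were far apart, and still all of them lay under the LOX-PP arrays.

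The 5 genes outside the family whose pattern over the 6 arrays was most like that of ARMCX1 were H1-1, MT1M, NLRP2, MT1F and GXYLT2. Likeness was measured as the root mean square difference from the ARMCX1 probe over the 6 arrays, with each probe centred on its mean, and it was 0.58, 0.73, 0.75, 0.81 and 0.86 on the log2 scale. The measure uses the LOX-PP values of ARMCX1 that were not well above background, so that array background enters the likeness. With values under the common floor raised to it, a search added after the data had been seen, the 5 nearest genes were PDPN, CRIP1, NLRP2, GXYLT2 and HPDL, and 2 of them were shared with the first search. The choice fixes that all are bright in the control cells and dim in the LOX-PP cells, so that their values are a description.

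H1-1, a linker histone, gave 4.37, 4.45 and 4.25 in the control cells and −4.31, −3.53 and −4.12 in the LOX-PP cells, where it remained well above background. MT1M, a metallothionein, gave 1.58, 2.12 and 0.06 against −8.25, −5.82 and −6.48. It did not stand well above background on a LOX-PP array. NLRP2, an innate immune gene, and GXYLT2, a xylosyltransferase, were likewise not well above background on the LOX-PP arrays. MT1F, another metallothionein, was well above background on 1 of 3 LOX-PP arrays, with −5.07, −4.46 and −5.10 there against 3.40, 3.68 and 2.41.

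Of the fibroblast marker list, 3 of 7 tested probes passed by limma, against 5.66% of all tested probes, and not in 1 direction: COL1A2 (−3.04) and LUM (−2.42) were lower and FAP (3.52) higher. The summed scaled signal of its 8 probes was 42.8 to 49.5 in the control cells and 14.9 to 20.8 in the LOX-PP cells, in units of the 75th percentile of each array. COL1A2 made up most of it in the control cells, with 33.1 to 37.4 there and 4.13 to 5.33 in the LOX-PP cells, and without COL1A2 the sums were 9.69 to 12.1 and 10.8 to 15.5. Each gene of the list was well above background on at least 1 array. Their part in the differences of ARMCX1 and ARMCX2 was not tested.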

How the data were processed

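The study measured gene expression in 3 A673/TR/empty and 3 A673/TR/LOX-PP cultures, from separate experiments according to the methods. For each array the authors deposited spot intensity from the scanner, with background-corrected signals and flags (Agilent Feature Extraction 10.7, per the submitters' processing notes), and a table of log2 values. The deposited log2 values equal the scaled signal used here, less the median of each probe, to within 0.02 for 50537 of 50599 probes. Their array medians lie between −0.341 and 0.415.

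Control spots and outlier spots (213 to 353 per array) were left out. Spots of the same probe were averaged as log2 processed signal, and each array was scaled to its 75th percentile. Probes well above background on at least 3 arrays were tested with limma (version 3.58.1, R 4.3.3) with no block term, calling probes whose Benjamini-Hochberg adjusted p was under 0.05. The p-values set the difference between the groups against the spread of arrays within a group, and the number of 6 arrays limits the precision. They cannot be taken to cover variation between clones or lines. The limma fit alone was run on simulated data, drawn as independent normal noise around the mean of each tested probe. Spot averaging, scaling, the filter and the naming of probes were not tested in that way. Whether the replicate numbers pair the arrays is not settled.

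Probes were named through the accessions of a RefSeq table. The array design uses another assembly, so that its coordinates were not used, and probe sequences and cross-hybridisation between members were not analysed here. The members and the gene lists were chosen with earlier results of these data known. The planned rule for naming genes took all member probes, genes of the lists past the threshold, the 5 genes most like ARMCX1, and LOX. Outside that rule, GPRASP3, ARMC10, the RHOT and TRAK genes, some cell type markers and the nearest genes of the added searches were also named.

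Alternatives were other scalings, background corrections, filters, a common floor, the slide or the replicate number as a block, the methods' t-test and leaving out each array. The median spot signal served for normexp (offset 50).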

Additional observations from a re-analysis of the deposited data

How the results depend on the processing

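ARMCX1 kept its direction and call under all 16 alternatives that tested it, and it was not tested under the filter of well above background on all 6 arrays, where it cannot pass. The alternatives use the same arrays, and the family was chosen for this probe, so that they are no test of ARMCX1. Its lower bound of 179-fold became 72.4-fold with the common floor, and 2 of the 5 genes most like it were shared. ARMCX2 kept its direction under all 17 and lost its call in 2, as given above, and for it too they are no independent test. ARMCX3, ARMCX4 and the second ARMCX6 probe kept their direction and stayed uncalled under all 17. The sign turned for ARMCX5 (0.04) and ARMCX6 A_23_P62351 (0.16) under quantile normalization, for GPRASP1 with the slide as a block or without LOX-PP replicate 1 (−0.04 in both, up to 0.54 when each other array was left out), and for GPRASP2 under normexp background correction (−0.06), without a filter (−0.11) and without LOX-PP replicate 3 (−0.30, up to 0.34 when each other array was left out).

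Of the 9 member probes, 2 passed in the main analysis, against 1 with the filter on all 6 arrays and 1 by the methods' t-test, and 1 to 2 when each array was left out in turn. Over all probes 1849 passed, against 516 without a filter, 566 by the methods' t-test and 860 with the replicate block, and 407 to 2062 when each array was left out. Whether the replicate numbers pair the arrays is not settled. Deviations of arrays with the same number correlated at 0.267, −0.39 and 0.226, and those with different numbers between −0.464 and 0.391. With 3 arrays per group these correlations cannot decide it. With the replicate block, ARMCX1 and ARMCX2 were still called (adjusted p = 0.0093 and 0.0341 by limma).

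Of the 45 neighbour probes 4 passed, against 8 under quantile normalization, 8 with the filter on all arrays of a group, 7 with the common floor, 1 without a filter, 2 by the methods' t-test, and 1 to 5 when each array was left out. Of the 38 probes of mitochondrial transport 3 passed, against 1 without a filter and 1 by the methods' t-test, and 1 to 3 when each array was left out. Of the 28 probes of receptor sorting 2 passed, against 1 without a filter, 1 with the slide as a block, 1 with the replicate block, 0 by the methods' t-test, and 0 to 2 when each array was left out. A fit with 1 array left out has less power by construction. Over all probes such fits called 407 to 2062, against 1849 with all 6 arrays. Why the counts differ between settings was not tested.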

Other observations

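The genes whose pattern over the 6 arrays was most like that of ARMCX2 were BRSK2, RELL1, C1QL2, TCF15 and NXN, a search that was added after the data had been seen. The root mean square difference from the ARMCX2 probe, each probe centred on its mean, was 0.12, 0.23, 0.28, 0.30 and 0.30 on the log2 scale. BRSK2, a kinase known from neuronal polarity, gave −3.53, −3.20 and −3.50 in the control cells and −1.28, −0.94 and −0.16 in the LOX-PP cells. NXN, nucleoredoxin, a redox protein of Wnt signalling, gave −3.73, −3.44 and −3.32 against −1.48, −1.01 and 0.16. None of these genes is on chromosome X. Their values are a description, since the choice fixes their direction.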
